A study of Homo sapiens with 9 samples.

Results

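Interferon-stimulated genes were followed after knockdown of FOSL1 in EGI-1, a human cell line established from a bile duct cancer (cholangiocarcinoma). The 41 genes were taken from a fixed list of well known interferon targets and matched by Ensembl gene identifier. All 41 were found among the 58381 genes counted. Every library came from cells carrying a tetracycline-inducible short hairpin and given 2 ug/ml doxycycline for 4 days, and cells were then seeded 24 h before RNA was taken. GFPsh, a hairpin against GFP, was the control, and FOSL1sh3 and FOSL1sh10 were separate hairpins against FOSL1, each with 3 libraries. No interferon treatment is given in the labels. The sources used here do not say whether each line was a pool of cells or a clone, and no library without doxycycline was analysed here.

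Interferons are secreted proteins that signal through cell-surface receptors and the kinases JAK1 and TYK2. The kinases activate STAT proteins. STAT2 acts with IRF9 in a complex that binds the interferon-stimulated response element (ISRE) in promoters, and the GAS element is a second binding site of the STAT family. The genes switched on this way encode sensors of viral RNA, antiviral enzymes, membrane proteins that block virus entry, and the ubiquitin-like protein ISG15, and many are also expressed at a basal level in tumour cells. FOSL1 (FRA-1) is a subunit of AP-1, a transcription factor that binds a different element, the AP-1 site.

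Promoter letters are shown first. The list was made of known interferon targets, so a high share of ISRE matches follows from that choice and is no separate result. RefSeq windows on GRCh38.p14, from 250 bases before to 50 bases after each annotated start, were present for 34 of the 41 members, and IRF7, IFIT2, OAS2, OASL, USP18, IFITM2 and GBP2 were not in that table. The ISRE core was searched as a pair of GAAA with NN between them, the GAS element as TTCNNNGAA and the AP-1 site as TGANTCA, on both strands, and matches of different elements were allowed to overlap. The ISRE core was found in 24 of 34 members (70.6%) against 1195 of all 27305 genes in the table (4.4%, or 3.6% of all 35116 start windows). It was in 11 of 14 members higher with FOSL1sh10 (78.6%) and in 11 of 14 members tested and called in no comparison (78.6%). GAS letters were in 10 of 34 members (29.4%) against 9.4% of all genes, and AP-1 letters were in 3 of 34 (8.8%) against 9.4%. Of the members higher with FOSL1sh10, 5 of 14 had GAS letters and 2 of 14 AP-1 letters. Of those called in no comparison, 4 of 14 had GAS letters and 1 of 14 AP-1 letters. A match describes letters only. The stretches below run 5′ to 3′ along the gene's strand, with the match in capitals and its position given for the first capital base, counted back from the annotated start. The starts are those of RefSeq and can lie inside the gene loci given below, as for ISG15, IFI27 and IFI35. The stretches of LGALS3BP, IFI35 and ISG20 overlap exons of the annotation used for counting. The first 3 stretches belong to members that were higher with each hairpin.
ISG15, chr1:1013380-1013409, plus strand, ISRE core at -107: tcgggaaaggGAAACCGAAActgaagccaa
IFI27, chr14:94110631-94110660, plus strand, ISRE core at -95: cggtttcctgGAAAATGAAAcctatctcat
LGALS3BP, chr17:78979962-78979991, minus strand, ISRE core at -58: gtggtttctgGAAATCGAAAgtagactctt
The next 3 belong to members called with FOSL1sh10, the last of them lower.
IFIT1, chr10:89392510-89392539, plus strand, ISRE core at -103: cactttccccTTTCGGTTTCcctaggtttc
IFI6, chr1:27672288-27672317, minus strand, ISRE core at -115: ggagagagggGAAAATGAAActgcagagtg
IFI44, chr1:78649761-78649790, plus strand, ISRE core at -60: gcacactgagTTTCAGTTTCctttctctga
Members called in no comparison carried the same letters.
OAS3, chr12:112938321-112938350, plus strand, ISRE core at -143: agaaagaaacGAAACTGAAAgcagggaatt
SAMD9, chr7:93118096-93118125, minus strand, ISRE core at -136: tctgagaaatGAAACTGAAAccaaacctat
HERC5, chr4:88457035-88457064, plus strand, ISRE core at -74: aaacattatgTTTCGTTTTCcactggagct
The last 3 show the GAS letters of IRF1 and IFI35 and the AP-1 letters of ISG20, all members higher with FOSL1sh10. Members called in no comparison had such letters too, as counted above.
IRF1, chr5:132490879-132490907, minus strand, GAS at -124: acagcctgatTTCCCCGAAatgacggcac
IFI35, chr17:43006752-43006780, plus strand, GAS at -22: aggcagggatTTCACGGAAatgaaagtgg
ISG20, chr15:88638984-88639010, plus strand, AP-1 site at -22: gagttagagaTGAGTCAccgctgagag

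Library totals ranged from 6893026 to 10604251 counts, and 3 counts, the most that a count of 0 leaves possible, corresponded to 0.305 to 0.432 CPM (the count relative to the scaled library total). FOSL1 itself was at 302, 256 and 182 CPM in GFPsh, 72.1, 70.1 and 44.8 in FOSL1sh3 and 70.7, 57.0 and 65.7 in FOSL1sh10. It fell by 1.98 on the log2 scale with FOSL1sh3 (SE 0.20, adjusted p = 1.2e-05) and fell by 1.94 with FOSL1sh10 (SE 0.20, adjusted p = 1.03e-05), and the hairpins differed by 0.05 (95% interval -0.36 to 0.46, adjusted p = 0.9). All 7 bile duct epithelial markers passed the expression filter and summed to 10685 to 11574 CPM in GFPsh, 11972 to 13339 in FOSL1sh3 and 10699 to 12676 in FOSL1sh10. Of these, KRT7, a duct keratin, rose with FOSL1sh3 (0.46, adjusted p = 0.0432) and FOSL1sh10 (0.71, adjusted p = 0.00456). The first call ended without any 1 of the GFPsh libraries or FOSL1sh3 replicate 1 or 3 (0.0956 to 0.132), and in 4 other settings (0.0507 to 0.0833). Between the hairpins SOX9 (0.80, adjusted p = 0.00189) and EPCAM (0.49, adjusted p = 0.0343) were higher and KRT19 lower (-0.50, adjusted p = 0.0243) in FOSL1sh10. Without FOSL1sh3 replicate 1 or 3 or FOSL1sh10 replicate 1 or 2 the EPCAM and KRT19 calls ended, and that of EPCAM also without FOSL1sh10 replicate 3 (0.0603 to 0.179 and 0.0541 to 0.123). Leukocyte markers summed to 3.14 to 5.28 CPM in GFPsh, 6.45 to 7.77 in FOSL1sh3 and 6.26 to 9.66 in FOSL1sh10. Only CD14 of those 14 was tested, and it was not called. CD3E, MS4A1, CD68, FCGR3A and IL3RA had 0 counts in all 9 libraries, and PTPRC, the pan-leukocyte marker, had 2 counts in a single library. Fibroblast and endothelial markers summed to 2.92 to 4.73 CPM in GFPsh, 4.30 to 7.997 in FOSL1sh3 and 8.11 to 9.66 in FOSL1sh10, with COL1A1 the only 1 of 10 tested and COL3A1, DCN, LUM and PDGFRB at 0 throughout. Ribosomal protein genes took 22.2 to 23.5% of counts in GFPsh, 24.7 to 24.9% in FOSL1sh3 and 18.6 to 21.8% in FOSL1sh10. The part of these sums and shares in the results was not tested. In bulk RNA, more cells expressing a gene and more RNA of it per cell cannot be told apart.

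After FOSL1 knockdown 9 interferon-stimulated genes rose with FOSL1sh3 and 16 with FOSL1sh10, among them ISG15, MX1, IFI27 and the IFITM genes with each hairpin. The expression filter was passed by 37 of the 41 members, and these were tested. A gene was called at an adjusted p under 0.05 in edgeR's quasi-likelihood test, over all 12814 genes tested. With FOSL1sh3, the 9 rises stood with 0 falls, beside calls for 10.9% of all genes (5.21% higher and 5.65% lower). With FOSL1sh10, 16 members rose and 1 fell, beside calls for 5.28% of all genes (3.13% higher and 2.15% lower). The median log2 fold change over the 37 tested members was 0.16 with FOSL1sh3 and 0.73 with FOSL1sh10, while the median over all genes was 0.01 and 0.00. It was above 0 in 26 of 37 members with FOSL1sh3 (50.6% of all genes) and in 31 with FOSL1sh10 (50.2% of all genes). For the mean of both hairpins against GFPsh, 11 members rose and 0 fell, beside calls for 6.22% of all genes (3.25% higher and 2.97% lower), with a member median of 0.41. All FOSL1sh10 libraries lay above all GFPsh libraries for 21 of the 37 members (14.3% of all genes), and all FOSL1sh3 libraries did for 12 (14.7% of all genes). These comparisons share the 3 GFPsh libraries, so their counts are not independent of each other.

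**Figure D1:**
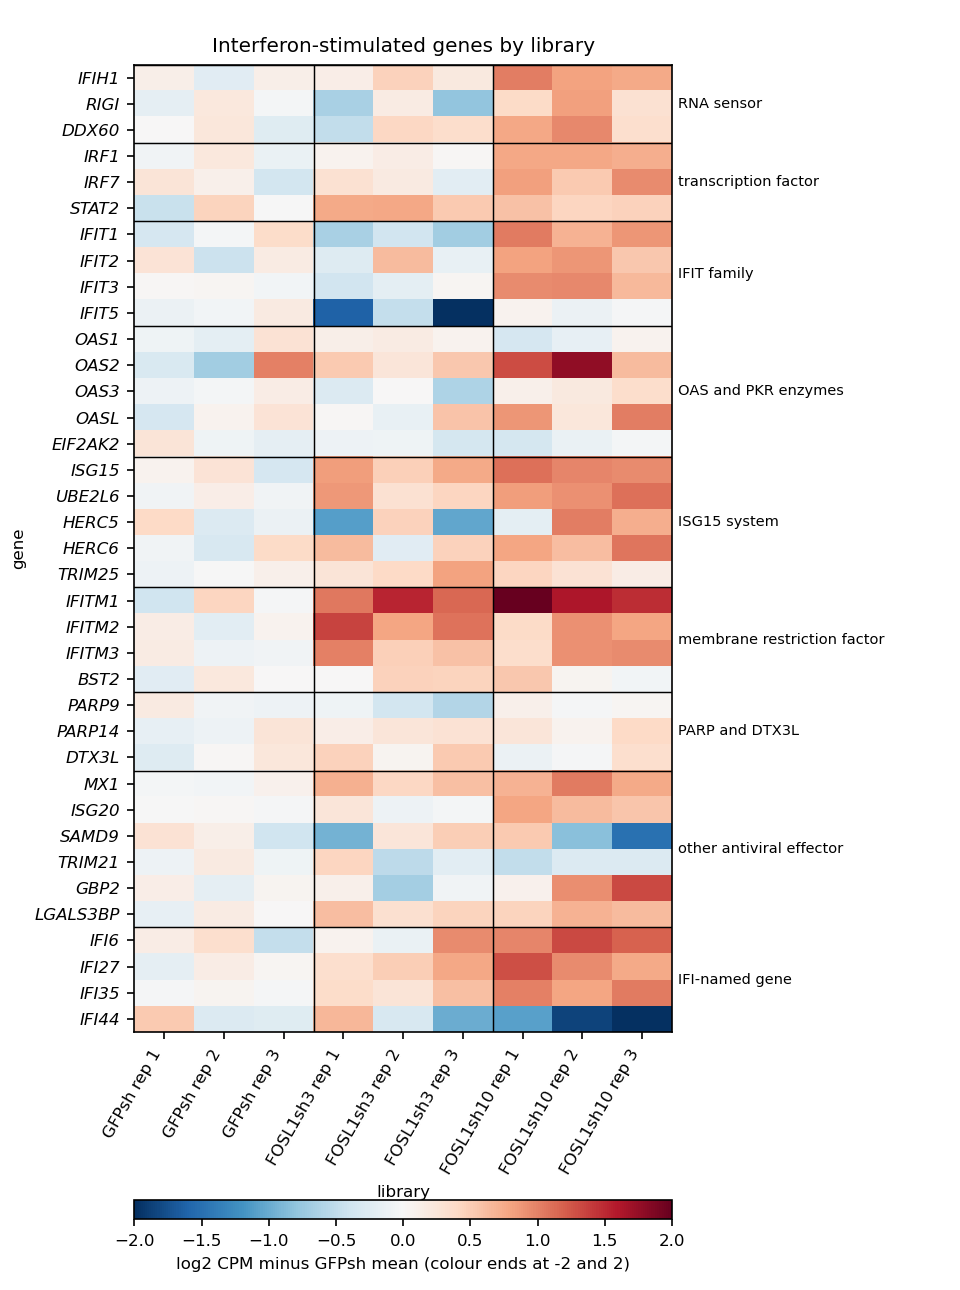
Heat map of the 37 tested members (rows, grouped by role) in the 9 libraries (columns), coloured by log2 CPM minus the mean of the 3 GFPsh libraries. The FOSL1sh10 columns are mostly red, with IFI44 blue, and the FOSL1sh3 columns are mixed, with the IFITM genes red and IFIT5 blue.

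The shift was also followed library by library, always against the mean of the same 3 GFPsh libraries. The median over the 37 members of log2 CPM minus the control mean was -0.07, 0.03 and -0.01 in the GFPsh libraries. It was 0.13, 0.24 and 0.36 in FOSL1sh3 and 0.59, 0.70 and 0.64 in FOSL1sh10, so the 3 groups did not overlap. The GFPsh values lie near 0 because their own mean was subtracted, and all knockdown values share that reference. The same median over all genes lay between 0.0018 and 0.0094 in every library. Of the 37 members, 15, 19 and 18 lay above the control mean in the GFPsh libraries themselves. Between 24 and 26 did in each FOSL1sh3 library, and between 29 and 31 in each FOSL1sh10 library. The share of all genes above the control mean was not counted by library. Scaling by library totals alone moved the median of all genes to 0.11 with FOSL1sh10 and -0.06 with FOSL1sh3, and the member medians were then 0.83 and 0.09. Under that scaling 4 members were called with FOSL1sh3, and 4 also when only GFPsh and FOSL1sh3 entered the fit. Calls over all genes were 1412 and 966 in these 2 settings, against 1392 in the main fit. UBE2L6, TRIM25, MX1, LGALS3BP and IFI27 then missed the threshold (adjusted p 0.0559 to 0.0791 and 0.0503 to 0.0721).

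Removing a single library changed the counts. Of the calls with FOSL1sh3, the number went from 9 to 3, 4 or 1 when GFPsh replicate 1, 2 or 3 was removed, to 5 when FOSL1sh3 replicate 1 was, and to 4 when replicate 3 was. Calls over all genes fell in the same fits, from 1392 to 599, 895, 747, 990 and 756 in that order. With FOSL1sh10 the 17 calls became 10 without FOSL1sh10 replicate 2 and 10 without replicate 3. The 676 calls over all genes became 347 and 373. For the mean of both hairpins the 11 calls became 7 without GFPsh replicate 1 and 7 without GFPsh replicate 3. Here 797 calls over all genes became 316 and 312. Calls that withstood every such removal were IFITM2 with FOSL1sh3, and IFIH1, IRF1, IFIT3, ISG15, UBE2L6, IFITM1, MX1, IFI27 and IFI35 with FOSL1sh10.

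**Figure D2:**
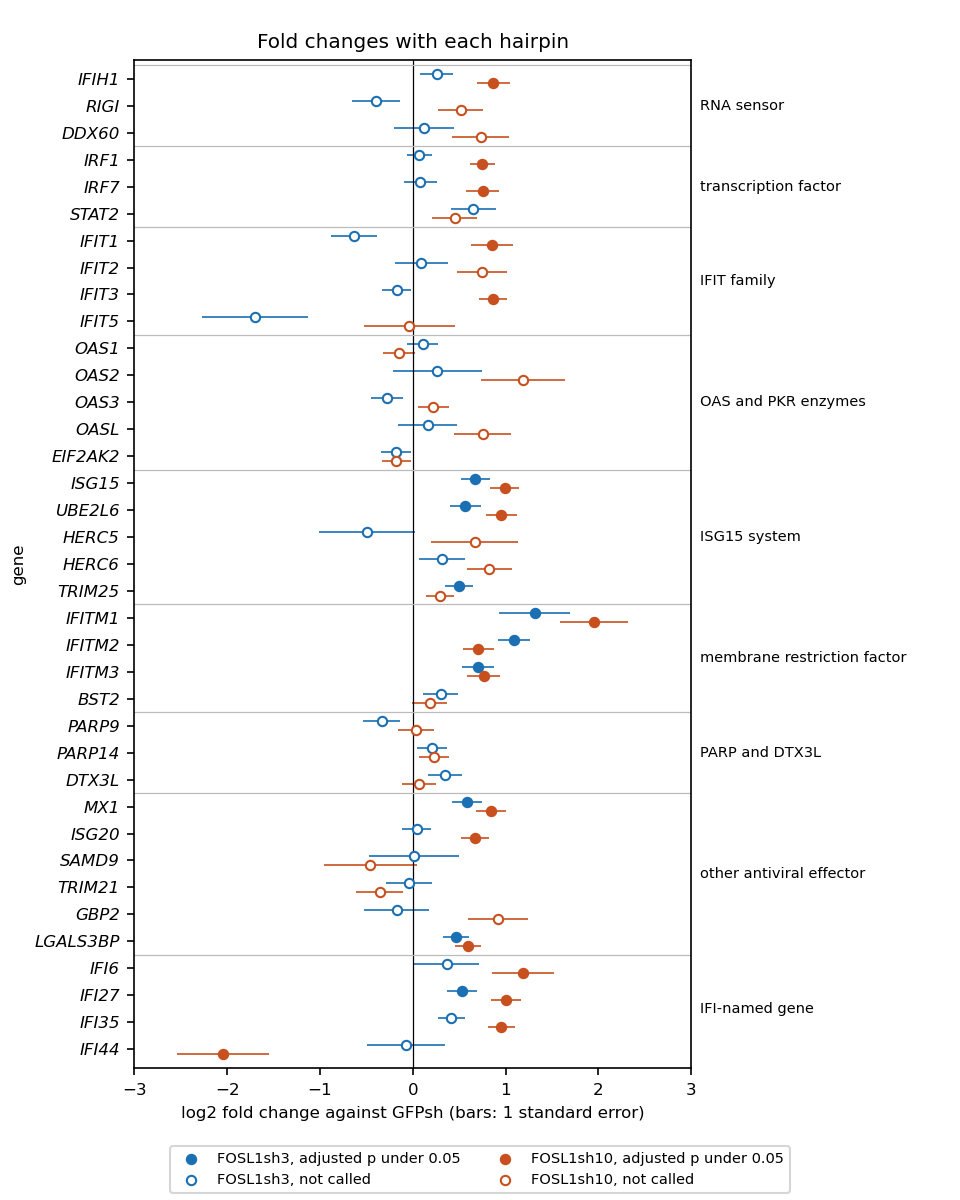
Log2 fold change against GFPsh of each tested member (rows, grouped by role) with FOSL1sh3 (blue) and FOSL1sh10 (orange), with bars of 1 standard error and filled points for calls. IFITM1 reaches 1.95 with FOSL1sh10, IFI44 lies at -2.05 with FOSL1sh10, and IFIT5 lies at -1.70 with FOSL1sh3 as an open point.

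Of the 3 RNA sensors, IFIH1 rose with FOSL1sh10 and RIGI differed between the hairpins. IFIH1 (MDA5, chr2:162267079-162318703 of hg38, minus strand) senses long double-stranded RNA. Its level was 15.8, 12.5 and 15.9 CPM in GFPsh, 16.1, 20.1 and 16.8 in FOSL1sh3 and 30.02, 25.8 and 24.9 in FOSL1sh10. All FOSL1sh10 libraries lay above all others, and the mean was 183% of the control mean (log2 fold change 0.87, SE 0.18, adjusted p = 0.00606). With FOSL1sh3 the IFIH1 log2 fold change was 0.26 (adjusted p = 0.387), and the hairpins differed by 0.61 (SE 0.18, adjusted p = 0.0289). RIGI (chr9:32455705-32526324, minus strand), which senses RNA with unprocessed ends, was at 9.36, 12.5 and 10.4 CPM in GFPsh, 6.76, 11.9 and 6.09 in FOSL1sh3 and 13.9, 19.1 and 13.2 in FOSL1sh10. The FOSL1sh10 libraries were the 3 highest, and FOSL1sh3 overlapped the control. RIGI was not called against GFPsh with FOSL1sh3 (log2 fold change -0.40, adjusted p = 0.341) or FOSL1sh10 (0.52, adjusted p = 0.254), but the hairpins differed by 0.91 (SE 0.25, adjusted p = 0.0233). DDX60, a helicase, had log2 fold changes of 0.12 and 0.73, neither called (adjusted p = 0.85 and 0.197). The IFIH1 difference between hairpins was not called without FOSL1sh3 replicate 1 or 3 or any 1 of the FOSL1sh10 libraries (adjusted p 0.0590 to 0.107). The RIGI difference was not called without FOSL1sh3 replicate 1 or 3 or FOSL1sh10 replicate 2 (0.0815 to 0.140).

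Among the transcription factors, IRF1 and IRF7 rose with FOSL1sh10. IRF1 (chr5:132481609-132490798, minus strand) is a transcription factor that binds ISRE-like elements. It was at 57.4, 69.8 and 54.8 CPM in GFPsh, 63.1, 67.1 and 61.2 in FOSL1sh3 and 103, 103 and 99.7 in FOSL1sh10. The FOSL1sh10 libraries stood apart at 168% of the control mean (log2 fold change 0.75, SE 0.14, adjusted p = 0.00217), while FOSL1sh3 overlapped the control (0.07, adjusted p = 0.78). The hairpins differed in IRF1 by 0.68 (SE 0.14, adjusted p = 0.00327), a difference called in every fit with 1 library left out. Counting was unstranded, and IRF1-AS1 overlaps 22.0% of the IRF1 exon bases on the opposite strand, with 1672 counts in all libraries against 5718 for IRF1. IRF7 (chr11:612553-615999, minus strand), the main inducer of type I interferon genes, was at 60.8, 54.7 and 39.1 CPM in GFPsh, 62.6, 57.1 and 43.7 in FOSL1sh3 and 89.6, 73.2 and 97.4 in FOSL1sh10. It rose with FOSL1sh10 to 168% of the control mean (log2 fold change 0.75, SE 0.18, adjusted p = 0.0161) and differed between hairpins by 0.67 (SE 0.18, adjusted p = 0.0189). The IRF7 rise was not called without GFPsh replicate 3 or FOSL1sh10 replicate 1 or 3 (adjusted p 0.0588 to 0.0934), nor was its difference between hairpins without FOSL1sh3 replicate 3 or FOSL1sh10 replicate 1 or 3 (0.0553 to 0.0941). STAT2, a subunit of the ISRE-binding complex, had log2 fold changes of 0.65 and 0.45, neither called (adjusted p = 0.091 and 0.33).

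The IFIT genes encode proteins that bind foreign RNA and lie side by side on chromosome 10, and IFIT1 and IFIT3 rose with FOSL1sh10. IFIT3 (chr10:89327894-89340971, plus strand) was at 35.5, 35.8 and 33.4 CPM in GFPsh, 26.7, 30.5 and 35.7 in FOSL1sh3 and 67.6, 68.0 and 54.7 in FOSL1sh10. It rose with FOSL1sh10 to 182% of the control mean (log2 fold change 0.86, SE 0.15, adjusted p = 0.00159), and its FOSL1sh3 value of -0.17 was not called (adjusted p = 0.501). IFIT1 (chr10:89392546-89406486, plus strand) was at 5.64, 6.96 and 9.35 CPM in GFPsh, 4.50, 5.47 and 4.32 in FOSL1sh3 and 14.9, 11.7 and 13.4 in FOSL1sh10. The 3 groups of IFIT1 did not overlap, FOSL1sh3 lying lowest and FOSL1sh10 highest. IFIT1 rose with FOSL1sh10 (log2 fold change 0.86, SE 0.23, adjusted p = 0.0322), and its FOSL1sh3 value of -0.63 was not called (SE 0.25, adjusted p = 0.107). The hairpins differed by 1.49 in IFIT1 (SE 0.24, adjusted p = 0.000658) and by 1.03 in IFIT3 (SE 0.15, adjusted p = 0.000282), and both differences were called whichever single library was left out. The IFIT1 rise against GFPsh was not called without GFPsh replicate 1 or 2 or any 1 of the FOSL1sh10 libraries (adjusted p 0.0614 to 0.153). IFIT2 was not called with FOSL1sh3 (0.09, adjusted p = 0.871) or FOSL1sh10 (0.75, adjusted p = 0.13). IFIT5, the lowest expressed at 157 counts in all, had 2.48, 2.58 and 3.08 CPM in GFPsh, 0.717, 1.87 and 0 in FOSL1sh3 and 2.85, 2.48 and 2.64 in FOSL1sh10. All FOSL1sh3 libraries of IFIT5 lay below all others, and its log2 fold change of -1.70 with that hairpin was not called (SE 0.57, adjusted p = 0.0639), although it was with DESeq2 (0.0244) or with no filter on low counts (0.00899).

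**Figure D3:**
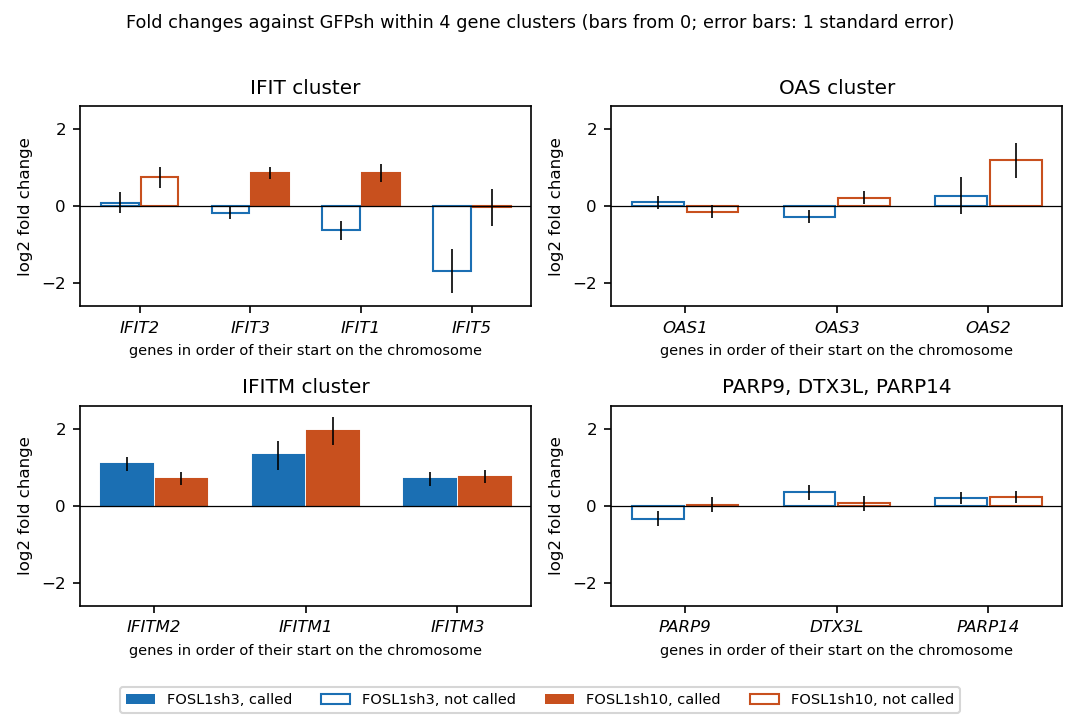
Log2 fold change against GFPsh with FOSL1sh3 (blue) and FOSL1sh10 (orange) for members that are neighbours in the genome, with error bars of 1 standard error and filled bars for calls. All 3 IFITM genes are filled with each hairpin, IFIT1 and IFIT3 are filled with FOSL1sh10, and the OAS and PARP9, DTX3L and PARP14 panels hold open bars.

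OAS1, OAS2 and OAS3 make the activator of RNase L, OASL is their relative, and EIF2AK2 (PKR) halts translation. These 5 genes gave 0 calls in each comparison with edgeR and with DESeq2. An unadjusted p under 0.05 was reached by 0 with FOSL1sh3, 2 with FOSL1sh10 and 1 between the hairpins. Of all genes, 10.9% were called with FOSL1sh3, 5.28% with FOSL1sh10, 6.22% for the mean of both and 12.7% between the hairpins. With shares this low, 0 calls among 5 is no result about these genes. OAS1, OAS3 and OAS2 are neighbours on chromosome 12. OAS1 was at 25.5, 23.8 and 33.1 CPM in GFPsh, 29.6, 30.5 and 28.6 in FOSL1sh3 and 21.5, 24.1 and 28.6 in FOSL1sh10, and its FOSL1sh10 log2 fold change was -0.15 (95% interval -0.51 to 0.21). EIF2AK2 had -0.18 with each hairpin (95% interval -0.52 to 0.15 with FOSL1sh3 and -0.51 to 0.16 with FOSL1sh10). OAS3 had -0.28 and 0.22, and the difference between hairpins of 0.50 was not called (95% interval 0.15 to 0.85, adjusted p = 0.0588). OAS2, at 191 counts in all, had 1.10, 0.786 and 3.08 CPM in GFPsh and 3.84, 5.42 and 2.34 in FOSL1sh10. These groups overlapped, and the log2 fold change of 1.19 was not called (SE 0.45, adjusted p = 0.142), but was without GFPsh replicate 3 (2.03, adjusted p = 0.0324). OASL had 0.16 and 0.75 (adjusted p = 0.793 and 0.175).

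In the ISG15 system, ISG15 and its conjugating enzyme UBE2L6 rose with each hairpin. ISG15 (chr1:1001138-1014541, plus strand), a ubiquitin-like protein, was at 368, 422 and 278 CPM in GFPsh, 623, 488 and 593 in FOSL1sh3 and 755, 693 and 673 in FOSL1sh10. The 3 groups did not overlap. ISG15 was at 160% of the control mean with FOSL1sh3 (log2 fold change 0.67, SE 0.16, adjusted p = 0.0118) and 199% with FOSL1sh10 (0.99, SE 0.16, adjusted p = 0.00078). UBE2L6 (chr11:57551656-57568284, minus strand) was at 24.9, 28.9 and 25.0 CPM in GFPsh, 48.1, 32.5 and 35.4 in FOSL1sh3 and 46.8, 49.3 and 56.5 in FOSL1sh10, with every knockdown library above every control. Its log2 fold change was 0.56 with FOSL1sh3 (SE 0.17, adjusted p = 0.0362) and 0.96 with FOSL1sh10 (SE 0.17, adjusted p = 0.00151). The difference between hairpins was not called for ISG15 (0.31, 95% interval -0.02 to 0.64) or UBE2L6 (0.39, 0.05 to 0.73, adjusted p = 0.121), but was for both with library totals alone (0.48, adjusted p = 0.0355 and 0.57, adjusted p = 0.0223). TRIM25 (chr17:56887909-56914038, minus strand), a ubiquitin ligase that acts with RIG-I, was at 109, 116 and 125 CPM in GFPsh, 139, 155 and 203 in FOSL1sh3 and 157, 142 and 130 in FOSL1sh10. Both knockdown groups lay above the control. TRIM25 was called with FOSL1sh3 (0.50, SE 0.15, adjusted p = 0.0404) and not with FOSL1sh10 (0.29, adjusted p = 0.314), and the difference between hairpins was not called (-0.21, 95% interval -0.53 to 0.10).

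The FOSL1sh3 calls in the ISG15 system depended on single libraries. The ISG15 call ended without GFPsh replicate 3 (adjusted p = 0.0607). Those of UBE2L6 and TRIM25 ended without any 1 of the GFPsh libraries, and also without FOSL1sh3 replicate 1 for UBE2L6 and replicate 3 for TRIM25 (adjusted p 0.0556 to 0.180 and 0.0678 to 0.181). HERC6, a relative of the ligase HERC5, was at 9.36, 7.86 and 13.0 CPM in GFPsh and 17.2, 15.2 and 21.0 in FOSL1sh10, which did not overlap. Its log2 fold change of 0.82 with FOSL1sh10 was not called (SE 0.24, adjusted p = 0.054), although it was with DESeq2 (0.0306), with no filter (0.0109) and without GFPsh replicate 3 (0.0381). HERC5, the ligase that attaches ISG15, had -0.50 and 0.67 with wide errors at 154 counts in all (adjusted p = 0.583 and 0.485).

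The 3 IFITM genes, which encode membrane proteins that block fusion of viruses with the cell, rose with each hairpin. IFITM3 (chr11:319669-327537, minus strand) was at 496, 412 and 417 CPM in GFPsh, 883, 612 and 662 in FOSL1sh3 and 564, 833 and 849 in FOSL1sh10. Its log2 fold change was 0.70 with FOSL1sh3 (SE 0.18, adjusted p = 0.0161) and 0.76 with FOSL1sh10 (SE 0.18, adjusted p = 0.0138). IFITM2 (chr11:307631-315272, plus strand) was at 61.2, 47.3 and 57.5 CPM in GFPsh, 141, 95.6 and 117 in FOSL1sh3 and 71.9, 103 and 95.2 in FOSL1sh10. It reached 213% of the control mean with FOSL1sh3 (1.09, SE 0.17, adjusted p = 0.000785) and 163% with FOSL1sh10 (0.71, SE 0.17, adjusted p = 0.0192). IFITM1 (chr11:313506-315272, plus strand) was far lower, at 0.963, 1.91 and 1.32 CPM in GFPsh, 3.07, 4.32 and 3.30 in FOSL1sh3 and 7.97, 4.63 and 4.17 in FOSL1sh10. It had the largest rise among members called, 255% of the control mean with FOSL1sh3 (1.31, SE 0.38, adjusted p = 0.0338) and 400% with FOSL1sh10 (1.95, SE 0.37, adjusted p = 0.00316). For all 3 genes each knockdown library lay above each control library.

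The hairpins were not told apart in the IFITM genes. Their difference was 0.06 in IFITM3 (95% interval -0.31 to 0.42), -0.39 in IFITM2 (-0.74 to -0.03, adjusted p = 0.142) and 0.64 in IFITM1 (-0.05 to 1.33). IFITM1 and IFITM2 are near-identical in part and share 351 exon bases on the same strand. These are 32.5% of the IFITM1 exons and 22.7% of the IFITM2 exons. With 260 and 6709 counts, the assignment of reads is uncertain for both, above all for IFITM1. Single libraries decided some calls. That of IFITM3 with FOSL1sh3 was lost if GFPsh replicate 2, GFPsh replicate 3 or FOSL1sh3 replicate 1 was removed (adjusted p 0.0619 to 0.0691). With FOSL1sh10, removing replicate 2 or 3 of either group ended the calls of IFITM3 (0.0643 to 0.0871) and IFITM2 (0.0542 to 0.120). The IFITM1 call with FOSL1sh3 ended without GFPsh replicate 1 or 3 or FOSL1sh3 replicate 2 or 3 (0.0659 to 0.127). BST2 (tetherin), which holds budding virus at the cell surface, was not called with FOSL1sh3 (0.30, 95% interval -0.09 to 0.70) or FOSL1sh10 (0.18, -0.21 to 0.58).

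PARP9, its ubiquitin ligase partner DTX3L and PARP14 lie together on chromosome 3. They gave 0 calls among 3 in each comparison with edgeR and with DESeq2, and 0 reached an unadjusted p under 0.05. The shares of all genes called were 10.9% with FOSL1sh3, 5.28% with FOSL1sh10, 6.22% for the mean of both and 12.7% between the hairpins. Beside these, 0 calls among 3 is no result about this cluster. PARP9 had log2 fold changes of -0.34 with FOSL1sh3 (95% interval -0.75 to 0.07) and 0.04 with FOSL1sh10 (-0.37 to 0.44). DTX3L had 0.35 (-0.04 to 0.74) and 0.07 (-0.32 to 0.46). PARP14 had 0.21 (-0.13 to 0.54) and 0.23 (-0.10 to 0.57). PARP9 and DTX3L share 217 exon bases on opposite strands, which unstranded counts do not separate.

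Among the other antiviral effectors, MX1 and LGALS3BP rose with each hairpin and ISG20 with FOSL1sh10. MX1 (chr21:41420304-41459214, plus strand), a GTPase that traps viral particles, was at 18.2, 17.96 and 19.7 CPM in GFPsh, 30.7, 24.8 and 28.3 in FOSL1sh3 and 30.2, 38.2 and 31.6 in FOSL1sh10. The knockdown libraries all lay above the controls (log2 fold change 0.59, SE 0.16, adjusted p = 0.0272 with FOSL1sh3 and 0.84, SE 0.16, adjusted p = 0.00386 with FOSL1sh10). LGALS3BP (chr17:78971238-78980109, minus strand), a secreted galectin-binding glycoprotein, was at 332, 418 and 377 CPM in GFPsh, 575, 469 and 511 in FOSL1sh3 and 510, 607 and 582 in FOSL1sh10, again without overlap of knockdown and control. Its log2 fold change was 0.46 with FOSL1sh3 (SE 0.14, adjusted p = 0.0412) and 0.59 with FOSL1sh10 (SE 0.14, adjusted p = 0.0178). The difference between hairpins was 0.25 for MX1 (95% interval -0.08 to 0.59) and 0.13 for LGALS3BP (-0.17 to 0.42), neither called. ISG20 (chr15:88636153-88656483, plus strand), an RNA exonuclease, was at 23.9, 24.5 and 23.6 CPM in GFPsh, 28.5, 22.3 and 23.4 in FOSL1sh3 and 41.8, 37.6 and 35.5 in FOSL1sh10. ISG20 rose with FOSL1sh10 alone among the comparisons with GFPsh (0.67, SE 0.15, adjusted p = 0.014, against 0.04 with FOSL1sh3, adjusted p = 0.887), and the hairpins differed by 0.63 (SE 0.15, adjusted p = 0.0132).

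Of the remaining effectors, GBP2, a GTPase of the guanylate-binding family, was not called with FOSL1sh3 (-0.17) or FOSL1sh10 (0.92, adjusted p = 0.112), but the hairpins differed by 1.09 (SE 0.33, adjusted p = 0.0354). The hairpin groups overlapped in GBP2, with FOSL1sh10 replicate 1 at 3.84 CPM and FOSL1sh3 replicate 1 at 3.89. GBP2 shares 621 exon bases on the same strand with GBP7, which had 4 counts in all libraries. TRIM21, a cytosolic antibody receptor, had -0.04 and -0.36, and SAMD9 had 0.01 and -0.46, none called. The MX1 and LGALS3BP calls with FOSL1sh3 each ended without any 1 of the GFPsh libraries and without FOSL1sh3 replicate 1 or 3 (adjusted p 0.0562 to 0.0925 and 0.0510 to 0.179). With FOSL1sh10 the LGALS3BP call ended without GFPsh replicate 1 or 3 or FOSL1sh10 replicate 2 or 3 (0.0589 to 0.122), and the ISG20 call without GFPsh replicate 1 or 3 or FOSL1sh10 replicate 1 or 2 (0.0543 to 0.0726). The ISG20 difference between hairpins ended without FOSL1sh10 replicate 1 or 2 (0.0516 to 0.0573), and that of GBP2 without FOSL1sh3 replicate 2 or 3 or FOSL1sh10 replicate 2 or 3 (0.0715 to 0.209) or with only those groups in the fit (0.0601).

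The genes named IFI went in opposite directions with FOSL1sh10, with IFI35, IFI27 and IFI6 higher and IFI44 lower. IFI35 (chr17:43006725-43014456, plus strand), a leucine zipper protein, was at 32.5, 34.4 and 32.3 CPM in GFPsh, 42.7, 39.4 and 50.02 in FOSL1sh3 and 66.4, 57.3 and 68.4 in FOSL1sh10. The 3 groups did not overlap, and IFI35 had the smallest adjusted p among members with FOSL1sh10 (0.95, SE 0.14, adjusted p = 0.000438). With FOSL1sh3 its value of 0.41 was not called (adjusted p = 0.0711), and the hairpins differed by 0.54 (SE 0.14, adjusted p = 0.0182). IFI27 (chr14:94104836-94116698, plus strand), a small hydrophobic mitochondrial protein, was at 116, 146 and 135 CPM in GFPsh, 166, 184 and 224 in FOSL1sh3 and 320.4, 254 and 223 in FOSL1sh10. All knockdown libraries of IFI27 were above the controls, at 145% with FOSL1sh3 (0.53, SE 0.16, adjusted p = 0.0393) and 201% with FOSL1sh10 (1.01, SE 0.16, adjusted p = 0.000775). Its difference between hairpins of 0.47 was not called (95% interval 0.14 to 0.81, adjusted p = 0.0599), although it was with DESeq2 (0.0471) and with library totals alone (0.00977). IFI6 rose with FOSL1sh10 (1.19, SE 0.33, adjusted p = 0.0418) and not with FOSL1sh3 (0.37, adjusted p = 0.542), with a difference of 0.83 that was not called (95% interval 0.14 to 1.51).

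IFI44 (chr1:78649796-78664078, plus strand), a cytoplasmic protein with a GTP-binding motif, was the single member that fell. It was at 9.22, 5.16 and 5.28 CPM in GFPsh, 10.1, 5.04 and 3.05 in FOSL1sh3 and 2.85, 1.58 and 0.508 in FOSL1sh10. All FOSL1sh10 libraries lay below all others, at 25.1% of the control mean, and the FOSL1sh3 libraries spread across the control range. IFI44 fell by 2.05 on the log2 scale with FOSL1sh10 (SE 0.49, adjusted p = 0.0183) and was not called with FOSL1sh3 (-0.07, adjusted p = 0.933), a difference between hairpins of -1.97 (SE 0.49, adjusted p = 0.0141). Its fall was not called without GFPsh replicate 1 or FOSL1sh10 replicate 2 or 3 (adjusted p 0.0672 to 0.0955), nor its difference without FOSL1sh3 replicate 1 or those FOSL1sh10 libraries (0.0519 to 0.0915). The IFI6 call ended without any 1 of the 6 libraries compared (0.0621 to 0.186), the IFI27 call with FOSL1sh3 without any 1 of the GFPsh libraries or FOSL1sh3 replicate 3 (0.0564 to 0.164), and the IFI35 difference without FOSL1sh3 replicate 1 or FOSL1sh10 replicate 1 or 3 (0.0518 to 0.0886).

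**Figure D4:**
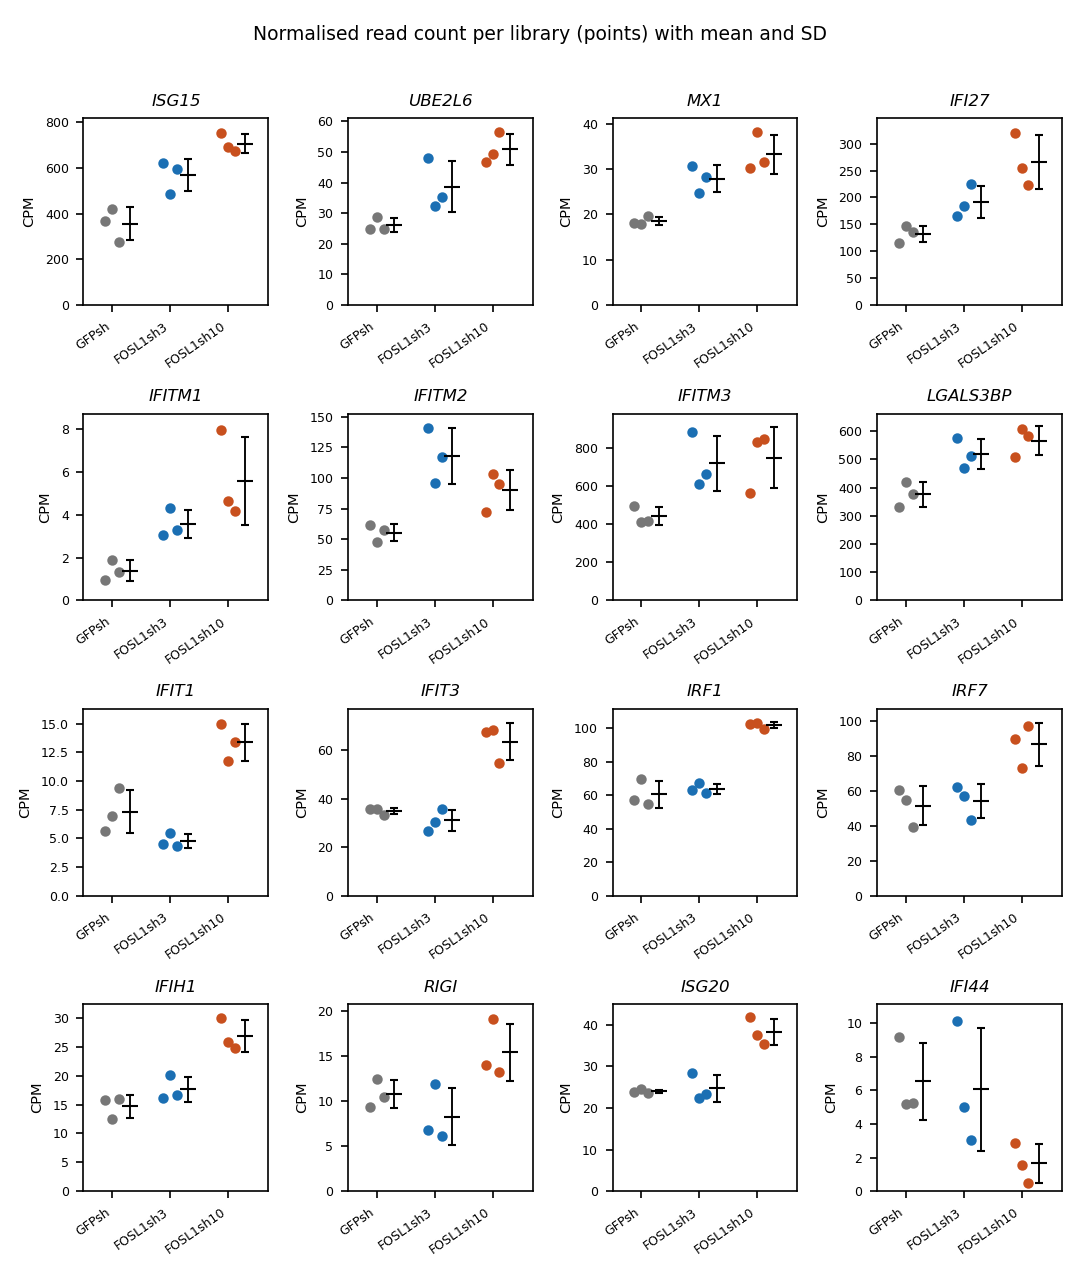
Normalised read counts (CPM) of 16 members in each library (points) by group, with the mean and SD of 3 libraries, each panel from 0. ISG15, UBE2L6, MX1, IFI27, LGALS3BP and the IFITM genes lie above GFPsh in both knockdown groups, IFIT3, IRF1, IRF7 and ISG20 lie above GFPsh in FOSL1sh10, and IFI44 lies low in FOSL1sh10.

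The filter on low counts left 4 members untested. IRF9 had 31 counts in all libraries, USP18, which removes ISG15 from proteins, had 41, XAF1 had 14 and IFI44L had 54. IRF9 was at 0.550, 0 and 0.220 CPM in GFPsh, 0.819, 0.576 and 1.02 in FOSL1sh3 and 0.569, 0.113 and 0 in FOSL1sh10, at most 8 counts in a library, and 48.4% of its exon bases overlap another gene on the same strand. IFI44L, the neighbour of IFI44, was at 0.413, 1.23 and 1.98 CPM in GFPsh, 1.13, 0.288 and 0.254 in FOSL1sh3 and 0.711, 0 and 0.203 in FOSL1sh10. Levels in control cells, per kilobase of annotated exon, ran from 0.0346 CPM for XAF1 to 378 for ISG15, with IFITM3 at 328 and LGALS3BP at 105. The library protocol tags transcripts near one end, so a level per kilobase does not rank these genes. Without division by length, the GFPsh means were 442 CPM for IFITM3, 376 for LGALS3BP and 356 for ISG15, another order.

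The difference between FOSL1 hairpins was tested directly, since a call with a single hairpin does not show that they differ. With FOSL1sh10 against FOSL1sh3, 9 members were higher and 1 lower, beside 12.7% of all genes (6.99% higher and 5.74% lower). The median difference over the 37 members was 0.50 and over all genes -0.00, and it was above 0 in 28 members (49.9% of all genes). In the order of their roles, the higher members were IFIH1, RIGI, IRF1, IRF7, IFIT1, IFIT3, ISG20, GBP2 and IFI35, and the lower was IFI44. All FOSL1sh10 libraries lay above all FOSL1sh3 libraries for 14 of the 37 (15.9% of all genes). The 10 calls became 6, 5 and 5 without FOSL1sh10 replicate 1, 2 or 3, while 1632 calls over all genes became 1177, 712 and 907. With library totals alone 17 members were called, 16 of them higher, and the median of all genes was then 0.17 and that of the members 0.67. Calls over all genes rose to 2189 under that scaling. The level of FOSL1 itself was not told apart between the hairpins, as given above.

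Upstream of these genes, interferon transcripts were hardly counted. Of 21 interferon genes, none passed the filter. IFNB1 had 1 count in FOSL1sh10 replicate 3, IFNL2 had 2 counts in FOSL1sh10 replicate 2, and the others had 0 in every library. IFNAR1, a subunit of the type I interferon receptor, had log2 fold changes of 0.30 and 0.15 with FOSL1sh3 and FOSL1sh10, neither called (adjusted p = 0.24 and 0.667). JAK1, a kinase bound to the receptors, had -0.13 and 0.11, neither called (adjusted p = 0.774 and 0.867).

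Adaptors and kinases that relay RNA and DNA sensing gave 1 call of 11 with each hairpin, a share near that of all genes with FOSL1sh3 (10.9%, and 5.28% with FOSL1sh10). IKBKE, a kinase that activates IRF factors, was at 10.9, 8.98 and 14.8 CPM in GFPsh, 11.8, 11.7 and 15.5 in FOSL1sh3 and 20.9, 21.1 and 21.4 in FOSL1sh10. IKBKE rose with FOSL1sh10 (0.87, SE 0.20, adjusted p = 0.0161) and differed between the hairpins by 0.71 (adjusted p = 0.0286). TBK1, its close relative, was at 8.39, 5.73 and 6.38 CPM in GFPsh, 3.69, 4.03 and 3.43 in FOSL1sh3 and 6.69, 8.46 and 5.79 in FOSL1sh10. TBK1 fell by 0.87 with FOSL1sh3 (SE 0.27, adjusted p = 0.0418) and differed between hairpins by 0.91 (adjusted p = 0.0305). The adaptor MYD88 was higher (0.58, adjusted p = 0.0334) and STING1, the adaptor of DNA sensing, lower (-0.79, adjusted p = 0.0171) in FOSL1sh10 than in FOSL1sh3. The TBK1 call against GFPsh ended without any 1 of the GFPsh libraries or FOSL1sh3 replicate 1 or 3 (0.0510 to 0.185), and the IKBKE call without GFPsh replicate 1 or 2 or FOSL1sh10 replicate 2 or 3 (0.0585 to 0.0874). Differences between the hairpins ended for IKBKE and MYD88 without FOSL1sh3 replicate 1 or 2 or any 1 of the FOSL1sh10 libraries (0.0625 to 0.0949 and 0.0682 to 0.112), for TBK1 without FOSL1sh3 replicate 1 or 3 or FOSL1sh10 replicate 1 or 2 (0.0568 to 0.168), and for STING1 without replicate 3 of either hairpin (0.0667 to 0.0742). With only the groups compared in the fit, TBK1 missed the threshold in both comparisons (0.0698 and 0.0521), as did MYD88 (0.0543).

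Of 8 tested inhibitors of the pathway, 0 were called against GFPsh with edgeR or DESeq2 (unadjusted p under 0.05 in 3 with FOSL1sh3 and 0 with FOSL1sh10), while NLRX1 (-0.84, adjusted p = 0.0219) and RNF125 (-1.26, adjusted p = 0.0402) were lower in FOSL1sh10 than in FOSL1sh3. Over all genes 10.9% were called with FOSL1sh3, 5.28% with FOSL1sh10, and 5.74% were lower between the hairpins, so 0 of 8 is no result about this list. NLRX1 is a mitochondrial protein that dampens antiviral signalling, and RNF125 is a ubiquitin ligase that acts on RNA sensors. Those calls ended without FOSL1sh3 replicate 1 or FOSL1sh10 replicate 1 or 2 for NLRX1 (0.0547 to 0.104), and without FOSL1sh3 replicate 2 or 3 or any 1 of the FOSL1sh10 libraries for RNF125 (0.0502 to 0.219). Library totals alone ended both (0.0573 and 0.0611).

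In a list of 49 further interferon-induced genes, 41 were tested, and 5 rose with each hairpin and 0 fell, beside 5.21% of all genes higher with FOSL1sh3 and 3.13% with FOSL1sh10. The median log2 fold change of the 41 was 0.10 with FOSL1sh3 and 0.30 with FOSL1sh10, against 0.01 and 0.00 over all genes. Between the hairpins 5 were higher in FOSL1sh10 and 0 lower, beside 6.99% and 5.74% of all genes. GBP3, a guanylate-binding GTPase, was at 28.2, 24.4 and 36.6 CPM in GFPsh, 17.2, 26.5 and 17.5 in FOSL1sh3 and 38.8, 46.3 and 44.5 in FOSL1sh10, a difference between hairpins of 1.09 (SE 0.19, adjusted p = 0.00141). SHFL, an inhibitor of ribosomal frameshifting, rose with FOSL1sh10 (0.88, SE 0.18, adjusted p = 0.00485). GBP1 (1.07, SE 0.23, adjusted p = 0.00962) and GBP4 (1.23, SE 0.32, adjusted p = 0.0281) rose with it too. PLSCR1, a scramblase-family protein, was higher in FOSL1sh10 than in FOSL1sh3 by 0.77 (adjusted p = 0.0043), EPSTI1 by 0.78 (adjusted p = 0.00465) and GBP4 by 1.5 (adjusted p = 0.00616). The GBP1 call ended without GFPsh replicate 2 or FOSL1sh10 replicate 2 (0.0567 to 0.0796) and the GBP4 call against GFPsh without any 1 of the 6 libraries (0.0504 to 0.151), while SHFL and the hairpin differences of GBP3, PLSCR1, EPSTI1 and GBP4 were called whichever single library was left out. Calls named after their values were seen were CMTR1, RNF213, LY6E, APOL2 and HELZ2 with FOSL1sh3 (0.53 to 0.82), and APOL1 (0.79) and HELZ2 (0.64) with FOSL1sh10. With FOSL1sh3, GFPsh replicate 3 and FOSL1sh3 replicate 3 each ended all 5 of these calls when removed. GFPsh replicate 1 also ended those of RNF213 and LY6E, GFPsh replicates 1 and 2 those of HELZ2 and APOL2, FOSL1sh3 replicate 1 that of HELZ2 and replicate 2 that of APOL2. The adjusted p was then 0.0619 to 0.0625 for CMTR1, 0.0672 to 0.127 for RNF213, 0.0520 to 0.111 for LY6E, 0.0538 to 0.166 for HELZ2 and 0.0619 to 0.147 for APOL2. HELZ2 and APOL2 were also lost with library totals alone (0.0869 and 0.0591) and with only the groups compared (0.0763 and 0.0578), and HELZ2 with no filter (0.0672). With FOSL1sh10, the HELZ2 call ended without replicate 2 or 3 of either group (0.0707 to 0.131), and that of APOL1 without GFPsh replicate 1 or 3 or FOSL1sh10 replicate 2 (0.0594 to 0.0787).

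**Figure D5:**
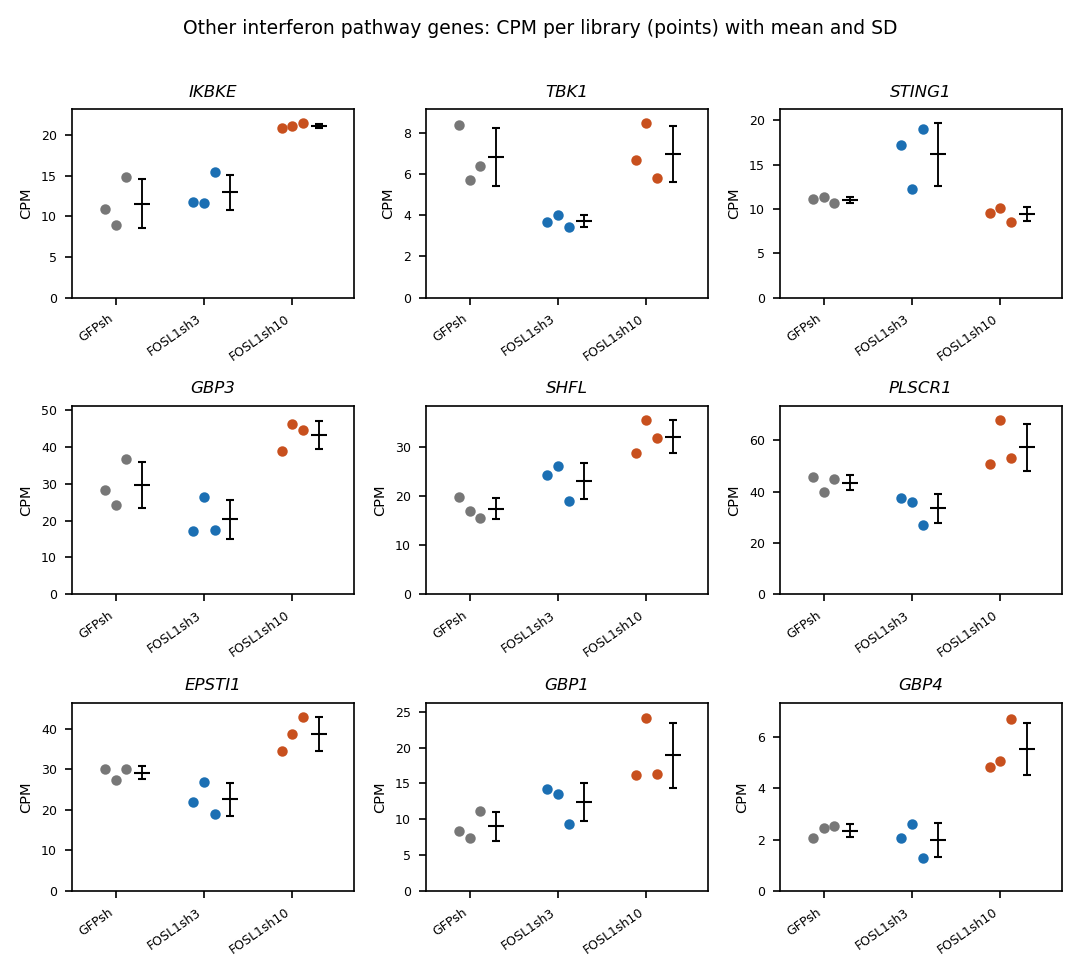
Normalised read counts (CPM) of 9 other genes of the pathway in each library (points) by group, with the mean and SD of 3 libraries, each panel from 0. PLSCR1 and EPSTI1 lie lowest in FOSL1sh3 and highest in FOSL1sh10, TBK1 is low in FOSL1sh3, and IKBKE lies between 20.9 and 21.4 CPM in FOSL1sh10.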

How the data were processed

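Each library was deposited as a table of raw counts, whole numbers of reads per gene with no normalization. Per the file headers, the authors counted with featureCounts 1.6.0 over the exons of GENCODE release 28 with no strand option. Per the submitters' processing notes, reads were aligned to hg38 with STAR 2.5.3a, and per the labels' protocols libraries were made by MARS-seq from RNA above a quality minimum. The sources used here do not say whether reads were collapsed by molecular identifier, so limits from counts cover counting error only.

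From the counts, edgeR 4.0.16 (R 4.3.3) was run in 1 fit over the 9 libraries with group as the only term. Its expression filter kept 12814 genes (count of at least 10, total of at least 15), libraries were scaled by TMM, and the quasi-likelihood F test was 2-sided. The threshold was an adjusted p (Benjamini-Hochberg) of 0.05. CPM is the count relative to the TMM-scaled library total, SE is the absolute log2 fold change divided by the root of F, and intervals are at 95%. The labels do not say that replicates were separate cultures, so p-values measure the spread between these libraries, which may be technical. Gene identifiers matched a current symbol for 57754 genes. Alternatives were RLE scaling, library totals, DESeq2 1.42.0, other filters, a replicate block, fits of the groups compared and leaving out each library. The fit was also run on simulated counts with the same spread for every gene, a simpler setting than these libraries. No result here rests on that run.

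The members, lists and tests were chosen with earlier results of these data known. Members called against GFPsh or between hairpins are given in every library (the 3 with the smallest p where a role held more), other members by fold change or range, and of other lists up to 6 called genes with the smallest p. Some genes of these lists are not reported here.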

Additional observations from a re-analysis of the deposited data

Results flagged for a closer look

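Members whose fold change against GFPsh differed between the hairpins, by the test of FOSL1sh10 against FOSL1sh3 itself, were taken as worth a closer look. The log2 difference, FOSL1sh10 minus FOSL1sh3, was 1.49 for IFIT1, 1.09 for GBP2, 1.03 for IFIT3, 0.91 for RIGI, 0.68 for IRF1, 0.67 for IRF7, 0.63 for ISG20, 0.61 for IFIH1, 0.54 for IFI35 and -1.97 for IFI44. FOSL1 itself was 0.05 apart between the hairpins. The differences of IRF1, IFIT1 and IFIT3 were called whichever single library was left out.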

How the results depend on the processing

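No member reversed direction past the threshold under any alternative run. With FOSL1sh3 the 9 member calls became 4 with library totals alone and 4 with only the groups compared, and between 8 and 10 under median-of-ratios scaling, DESeq2, no filter and a stricter filter (mean of 30 counts). Leaving out 1 library gave 1 to 10, beside 599 to 1803 calls over all genes (1392 in the main fit). With FOSL1sh10 the 17 calls were 16 to 18 under the other settings and 10 to 14 with 1 library left out. The 676 calls over all genes became 347 to 422 with 1 library left out. For the mean of both hairpins the 11 calls were 10 to 11, and 7 to 12 with 1 library left out. Here 797 calls over all genes became 312 to 1002 with 1 library left out. Between the hairpins the 10 calls became 17 with library totals alone, 9 to 12 under the other settings, and 5 to 13 with 1 library left out. Over all genes 1632 calls became 2189 with library totals alone and 712 to 1920 with 1 library left out. With the replicate number as a replicate block the counts were 9, 17, 11 and 10. Deviations of same-numbered libraries from their group means correlated at -0.12 to 0.18, and 2 of 9 pairs passed 0.1. Those of libraries with different numbers correlated at -0.17 to 0.16, and 1 of 18 pairs passed 0.1. With 3 libraries per group, such weak correlations cannot decide whether a number marks a shared culture or day, which the labels do not say. The block ended the calls of IFI6 with FOSL1sh10 (adjusted p = 0.051) and of IFIH1 in the mean of both hairpins (0.0502), and added IFI44 in that mean (0.0136) and HERC6 with FOSL1sh10 (0.0189). Genes near 3 counts, such as XAF1, are limited by depth.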
